A study of Mus musculus with 12 samples.

Results

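The transcripts described here are those of the hormones and lineage factors of the other endocrine lineages of the pituitary: growth hormone (*Gh*), prolactin (*Prl*), the subunits of thyrotropin and the gonadotropins (*Tshb*, *Lhb*, *Fshb*, *Cga*), the transcription factors *Pou1f1* and *Gata2*, and the receptors *Ghrhr* and *Gnrhr*. They were chosen by gene symbol, and 10 of the 55304 genes in the expression table carried one of these symbols. The 12 libraries came from male mice, 8 weeks old when assigned to the experiment, all carrying the *Pomc*-eGFP transgene on a C57Bl6/J background, so that cells with an active *Pomc* promoter fluoresce and can be sorted from the dissociated anterior pituitary. Control mice (group A) drank plain water, whereas DEX mice (group B) had the synthetic glucocorticoid dexamethasone at 2.5 µg/ml in the water for 4 weeks. The other groups had the same DEX exposure and were collected 7 days (1 week recovery, group C) or 28 days (4 weeks recovery, group D) after it ended. Each group gave 3 pools, with 2 to 3 pituitaries in a pool, so the replicate is the pool, not the mouse, and p-values measure the spread between pools.

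In the anterior pituitary each endocrine lineage makes its own hormone: somatotrophs growth hormone, lactotrophs prolactin, thyrotrophs thyrotropin, gonadotrophs luteinising and follicle-stimulating hormone, and corticotrophs the ACTH precursor encoded by *Pomc*. Thyrotropin and the gonadotropins are dimers of a common alpha subunit, encoded by *Cga*, and a beta subunit particular to each hormone. POU1F1 is required for somatotrophs, lactotrophs and thyrotrophs, and GATA2 acts in thyrotrophs and gonadotrophs but is also made by vascular endothelium and blood progenitors. *Ghrhr* and *Gnrhr* encode the receptors through which the hypothalamus drives somatotrophs and gonadotrophs. In bulk libraries of sorted pools, fewer cells of a type cannot be told apart from less RNA per cell.

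Values are normalised counts (reads scaled to the size of the library and then between libraries), and the reads on genes ranged from 7719894 to 12848078 per library. The libraries were those of sorted corticotrophs by label, and the corticotroph genes were present. *Tbx19*, the corticotroph lineage factor, stood at 459, 229 and 218 in the control pools, 769, 498 and 1490 in the DEX pools, 282, 385 and 39.5 at 1 week and 166, 94.4 and 188 at 4 weeks. The melanotroph factor *Pax7* never passed 0.336, although *Pcsk2*, also high in melanotrophs, had a mean of 59.6. All 3 DEX pools were thus above the other libraries for *Tbx19*, while the third pool at 1 week was the lowest. The listed corticotroph genes did not move together in DEX against control. The log2 difference was 1.55 for *Tbx19*, 1.87 for *Avpr1b* and 0.0072 for *Neurod1*. It was −3.41 for *Pomc*, −0.61 for *Crhr1*, −0.43 for *Pcsk1* and −0.26 for *Nr3c1*. Neither *Tbx19* (adjusted p = 0.0885 for 4 weeks against DEX, limma) nor any other of the 7 corticotroph genes passed the test in any comparison.

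Of these transcripts *Tshb* and *Gata2* passed the limma test, in 4 weeks of recovery against DEX, where 0.873% of all genes passed. *Tshb* was higher at 4 weeks by 2.59 ± 0.52 and *Gata2* by 1.61 ± 0.31 on the log2 scale (moderated limma SE, n = 3 pools a group). The spread of each gene itself between pools gave an SE of 0.67 for *Tshb*, above the limma value, and 0.29 for *Gata2*. Both calls were lost in 5 of 12 fits with 1 library left out, in plain CPM, with only the 2 groups compared and with moderation without a trend, and neither gene passed the F test over the 4 groups (adjusted p = 0.127 and 0.0899). No member passed the test in DEX against control. The largest transcripts, *Gh* and *Prl*, were abundant in every library and did not pass the limma test in any comparison. *Lhb* was at most 2 reads per library, although *Fshb* and *Gnrhr* were readily detected. At 4 weeks 9 of the 9 members other than *Lhb* had a mean log2 level above control, with a median difference of 0.57 beside 0.00 for all genes.

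**Figure D1:**
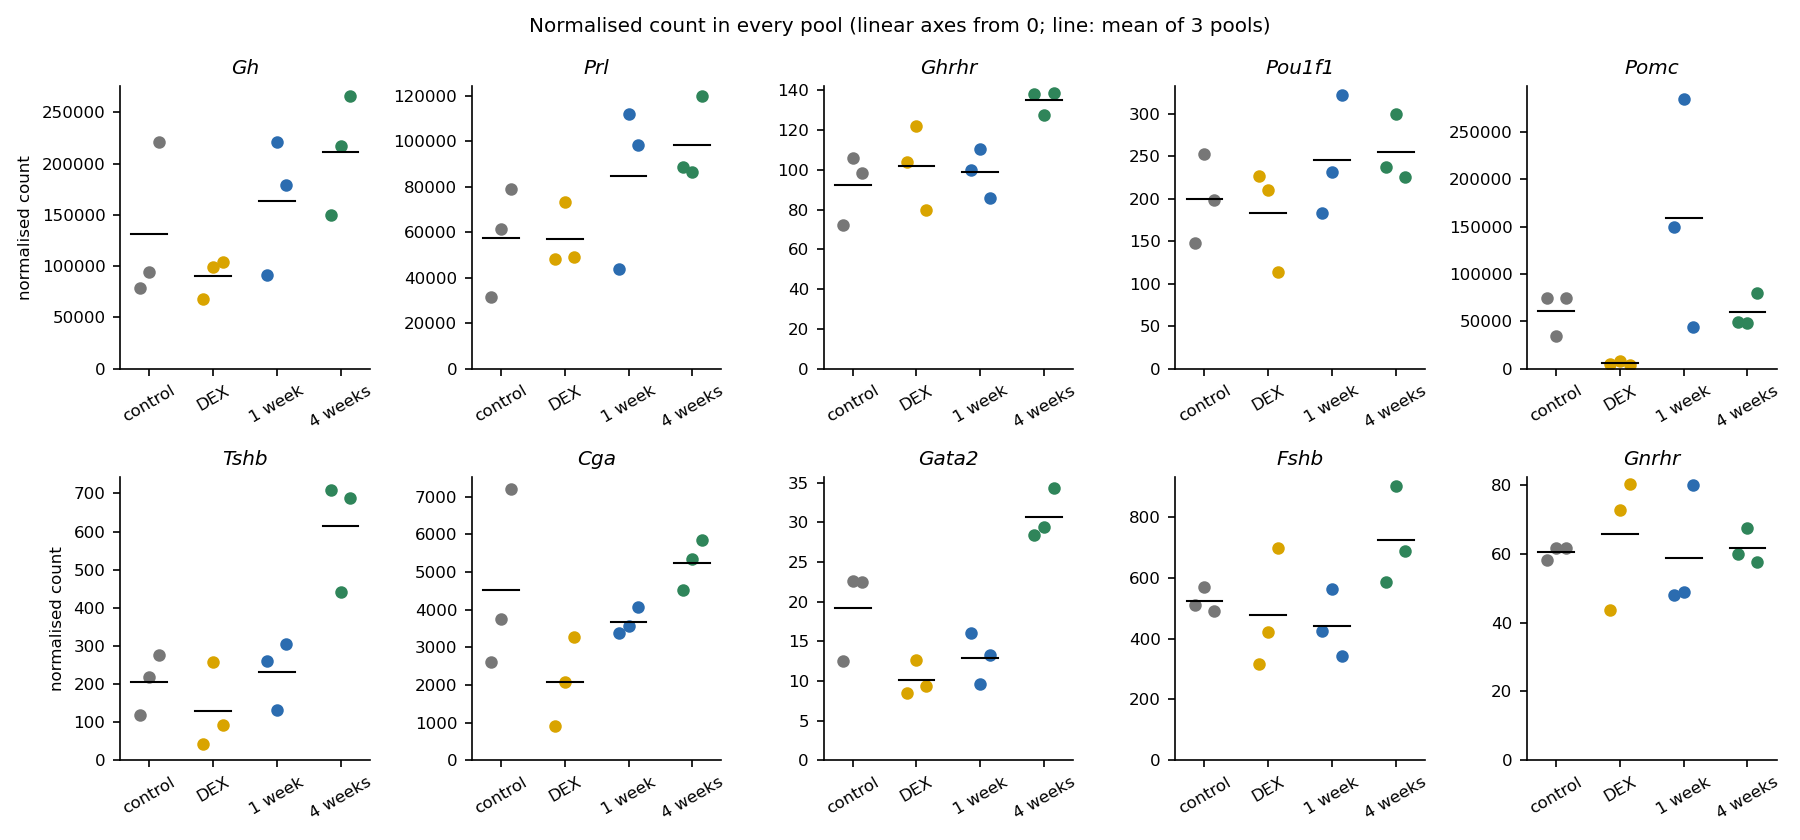
Normalised count (y axis, linear from 0) of 9 members and of *Pomc* in the 3 pools of each group, with the group mean as a line. *Tshb* and *Gata2* were highest in the 3 pools at 4 weeks, *Pomc* was lowest in the 3 DEX pools, and the pools of *Gh* and *Prl* overlapped widely between control and DEX.

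*Gh* (chr11:106300271-106301865, minus strand, GRCm38) and *Prl* (chr13:27057570-27065205, plus strand) were the most abundant members per length, with medians over the libraries of 147630 and 54078 normalised counts per kilobase of exon. *Pomc* itself had a median of 37083 on the same scale, over all groups with DEX among them. Its range, 3218 to 216039, held that of *Prl*, 22370 to 85073, so these could not be ordered. In control the means were 46293 for *Pomc* and 40701 for *Prl*. Among the members *Cga* followed with a median of 3840 and *Fshb* with 335. The ranges of *Cga* and *Fshb* over the 12 libraries did not overlap with each other or with that of *Prl*. *Pou1f1* (58.1) and *Tshb* (56.6) could not be ordered, as the range of *Tshb*, 9.18 to 156, held that of *Pou1f1*, 29.1 to 82.8. *Ghrhr* (30.1) and *Gnrhr* (19.1) overlapped in range as well, and *Gata2* was low at 2.71.

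*Gh* stood at 78901, 94475 and 221267 normalised counts in the control pools, 67563, 99293 and 104242 in DEX, 91791, 220810 and 178717 at 1 week and 150271, 217545 and 265851 at 4 weeks. The 4 weeks pools lay above all DEX pools, but the highest control pool exceeded 2 of them, so that the groups at 4 weeks and control overlapped. In limma the log2 difference from control was −0.41 for DEX, 0.38 at 1 week and 0.80 at 4 weeks, with adjusted p of 0.983, 1.00 and 0.965. The limma SE of 1.74 exceeded the value of 0.48 that the spread of *Gh* itself between pools gives, because the fit moderates each gene towards the variance of genes of like abundance. In edgeR's likelihood ratio test *Gh* passed in 4 weeks against DEX (1.22 on the log2 scale, adjusted p = 0.0374), where limma gave 1.21 (adjusted p = 0.916). From its own spread, the exact permutation test over the 4 groups gave p = 0.181, unadjusted.

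*Prl* had 31498, 61455 and 78966 normalised counts in control, 48110, 73317 and 49211 in DEX, 43612, 111735 and 98284 at 1 week and 88423, 86332 and 119783 at 4 weeks. Every 4 weeks pool was above every control and DEX pool. Its log2 difference from control was 0.86 ± 1.31 at 4 weeks (SE, limma adjusted p = 0.956), and the SE from its own spread was 0.45. The exact permutation test over the 4 groups gave p = 0.244, unadjusted. A pooled comparison of 3 against 3 cannot fall below an exact p of 0.1.

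*Gh* and *Prl* moved together from pool to pool. Over the 12 libraries Pearson's r of their log2 levels was 0.868 (permutation p adjusted over 7 pairs of transcripts = 0.00287) and Spearman's rho was 0.867 (adjusted p = 0.00399). Without the 2 libraries farthest from the median of *Gh* r was 0.839, and after removal of the group means it was 0.831. In plain CPM, over all 12 libraries, r was 0.774 (permutation adjusted p = 0.0153). The *Prl* to *Gh* ratio was 0.641 ± 0.147 for DEX and 0.469 ± 0.159 for control, then 0.510 ± 0.0376 after 1 week and 0.479 ± 0.0988 after 4 weeks of recovery (SD, n = 3). These ratios did not pass the exact permutation test over the groups (p = 0.365, adjusted over 5 ratios 0.365).

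**Figure D2:**
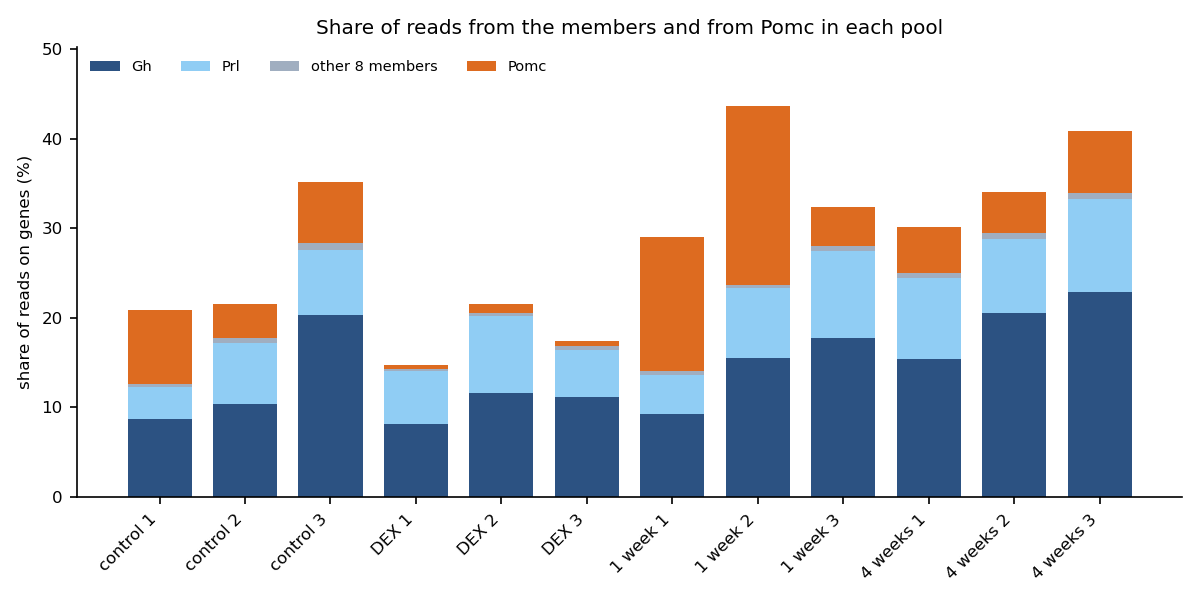
Share of reads on genes (y axis, percent) taken by *Gh*, *Prl*, the other 8 members and *Pomc* in each of the 12 pools, stacked. The members together took 12.7% to 28.4% in control, 14.2% to 20.6% in DEX, 14.1% to 28.0% at 1 week and 25.1% to 33.9% at 4 weeks, while *Pomc* took 0.454% to 0.997% in DEX and at least 3.80% in every other pool.

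As a share of all reads on genes, *Gh* took from 8.20% in the first DEX pool to 22.9% in the third 4 weeks pool, and *Prl* from 3.50% to 10.3%. 95% Wilson intervals of these shares were no wider than 0.0255 percentage points either way, and they cover counting error only. *Gh* exceeded *Pomc* in every DEX, control and 4 weeks pool and in the third pool at 1 week. *Prl* exceeded *Pomc* in every DEX and 4 weeks pool, in control pools 2 and 3 and in the third pool at 1 week. The *Gh* to *Pomc* ratio was 17.2 ± 6.64 for DEX and 2.26 ± 1.04 for control, then 1.83 ± 1.97 after 1 week and 3.62 ± 0.787 after 4 weeks of recovery (SD, n = 3). The 3 DEX pools (15.5, 11.7 and 24.6) lay above the other 9 libraries, and the ratio differed over the groups (exact permutation p = 0.0061, adjusted over 5 ratios 0.0177, of which the 2 with *Lhb* are not given). *Pomc* stood at 4362, 8521 and 4241 in DEX and at 74260, 34562 and 74221 in control, with a log2 difference of −3.41 ± 1.10 (SE, limma adjusted p = 0.424), against −0.41 for *Gh*. As for *Gh*, the limma SE exceeded that from the spread of *Pomc* itself, 0.68. The exact permutation test over the 4 groups gave p = 0.0057 for *Pomc*, unadjusted. Its DEX pools were all below its control pools, beside 6.23% of all genes. The study, with edgeR over all 4 groups, reported less *Pomc* mRNA after DEX. Without DEX pool 1 or DEX pool 3 the adjusted p of the ratio was 0.0619 or 0.0640.

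*Ghrhr* (chr6:55376295-55388530, plus strand), the receptor for growth hormone-releasing hormone, stood at 72.2, 106 and 98.4 in control, 104, 122 and 80.0 in DEX, 99.9, 110.2 and 86.0 at 1 week and 138, 128 and 139 at 4 weeks. The 3 pools at 4 weeks were the highest of all 12. The log2 difference from control was 0.57 ± 0.24 (SE, limma adjusted p = 0.754), and the exact permutation test over the groups gave p = 0.0784, unadjusted. *Pou1f1* (chr16:65520511-65535005, plus strand) ranged from 113 to 226 in DEX, from 148 to 252 in control, from 183 to 322 at 1 week and from 225 to 300.1 at 4 weeks. All 4 groups overlapped, and its exact permutation p was 0.391, unadjusted. *Gm49631*, an annotated gene overlapping *Pou1f1* on the opposite strand, followed it at r = 0.948 over the 12 libraries with 14.3% to 19.8% of its level. How far reads of *Pou1f1* and *Gm49631* were kept apart was not tested. *Gh* correlated with *Pou1f1* at r = 0.437 and with *Ghrhr* at r = 0.457 over the 12 libraries, and neither passed the permutation test (adjusted p = 0.186 for both). Both depended on the scaling, as r was 0.135 and 0.0168 in plain CPM. After removal of the group means r was 0.125 and 0.180.

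Of the 5 genes listed for somatotrophs beside the members, *Rxrg*, a retinoid X receptor, was the single one to pass the test, in 4 weeks against DEX (1.34 ± 0.26 on the log2 scale, SE, limma adjusted p = 0.0265). It stood at 17.6, 21.8 and 26.7 in DEX and at 50.9, 53.5 and 61.2 at 4 weeks, with no overlap. Its place in the somatotroph list was a choice, and which cells of the pools made it was not tested. *Ghsr*, the ghrelin receptor, had means of 1.27 and 7.72 (2.52 ± 0.60, adjusted p = 0.0650). *Dlk1*, the most abundant of the list (mean 1494), and *Foxo1* (mean 71.6) had log2 differences of 0.42 and −0.19 in that comparison and did not pass. None of the 4 lactotroph genes passed in any comparison, among them *Esr1*, the oestrogen receptor (mean 176), and the prolactin receptor *Prlr* (mean 49.4). *Gal*, the neuropeptide galanin, had a mean of 66.1 in DEX and 16.8 at 4 weeks (−1.91 ± 0.48, adjusted p = 0.0800). The rest of the lactotroph list went the other way in that comparison, with log2 differences of 0.75 for *Prlr*, 0.39 for *Drd2* and 0.17 for *Esr1*.

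*Tshb* (chr3:102775465-102782718, minus strand), the beta subunit of thyrotropin, stood at 119.7, 218 and 275 in control, 41.8, 257 and 91.3 in DEX, 259, 133 and 306 at 1 week and 709, 442 and 689 at 4 weeks. The lowest pool at 4 weeks was above the highest of the other 9 libraries, whereas control, DEX and 1 week overlapped. The mean was 613 ± 149 at 4 weeks against 130 ± 113 in DEX and 204 ± 78.5 in control (SD, n = 3). The difference from DEX was 2.59 ± 0.52 on the log2 scale (SE, limma adjusted p = 0.0290), and that from control was 1.64 ± 0.52 (adjusted p = 0.614). The spread of *Tshb* itself gave a larger SE, 0.67, than the limma fit. The second DEX pool, at 257, lay within the control range. *Tspan2*, which overlaps *Tshb* on the opposite strand, had a median of 52.3 and r = 0.532 with it over the 12 libraries, and whether reads of the overlap were kept apart was not tested.

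*Gata2* (chr6:88193891-88207032, plus strand) stood at 12.5, 22.6 and 22.5 in control, 8.45, 12.6 and 9.31 in DEX, 16.1, 9.56 and 13.2 at 1 week and 28.4, 29.4 and 34.4 at 4 weeks. Again the pools at 4 weeks were the highest of the 12, and the DEX pools overlapped with control by 1 pool each. The difference of 4 weeks from DEX was 1.61 ± 0.31 (SE, limma adjusted p = 0.0254), with means of 30.7 ± 3.21 and 10.1 ± 2.19 (SD, n = 3). DEX lay below control by a log2 difference of −0.89 ± 0.31 (adjusted p = 0.490), and 4 weeks above it by 0.72 ± 0.31 (adjusted p = 0.754). Over the 4 groups together the limma adjusted p was 0.0899 for *Gata2* and 0.127 for *Tshb*, neither past the threshold of 0.05. The exact permutation tests, unadjusted, gave p = 0.00494 and p = 0.0249.

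In 4 weeks against DEX 2 of the 10 members passed, beside 216 of all 24736 genes tested (0.873%), of which 102 were higher at 4 weeks (0.412%) and 114 lower (0.461%). In plain CPM these were 40 and 184. Both calls depended on single libraries. Without DEX pool 1 the adjusted p was 0.145 for *Tshb* and 0.129 for *Gata2*, while leaving out DEX pool 3 gave 0.146 and 0.119. When pool 1, 2 or 3 at 4 weeks was left out it was 0.118, 0.0958 and 0.132 for *Tshb* and 0.0819, 0.117 and 0.120 for *Gata2*. The log2 difference stayed between 1.97 and 3.28 for *Tshb* and between 1.49 and 1.78 for *Gata2* whichever library was left out.

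**Figure D3:**
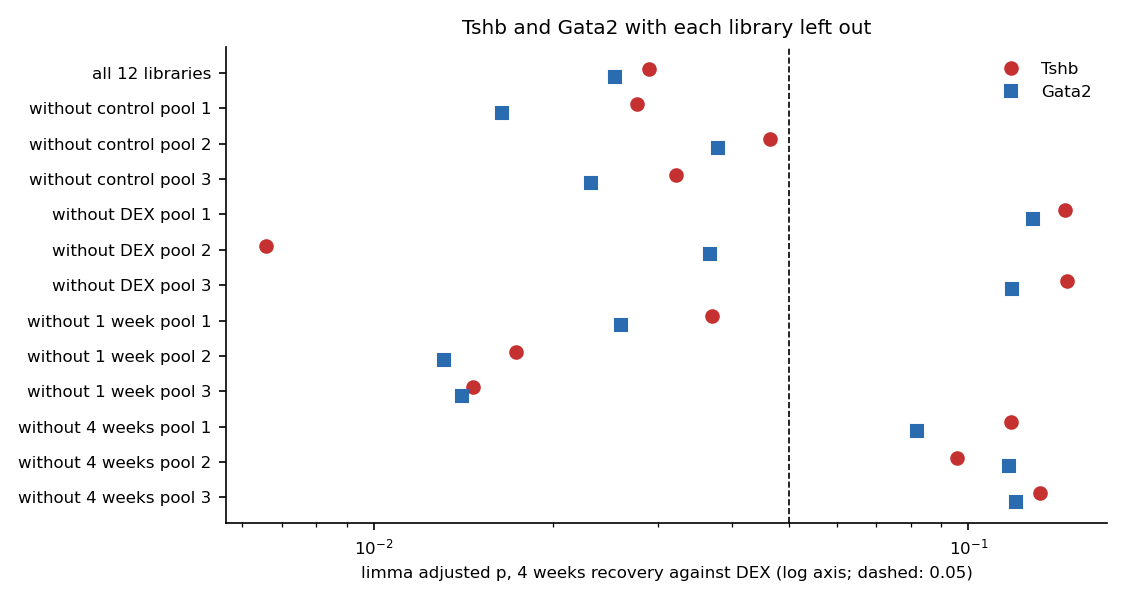
Limma adjusted p (x axis, log scale) of *Tshb* and *Gata2* for 4 weeks recovery against DEX, with all 12 libraries and with each left out (y axis); the dashed line marks 0.05. Both genes stay left of the line in 7 of the 12 fits and pass to the right of it without DEX pool 1 or 3 or any pool at 4 weeks.

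Like *Tshb* and *Gata2*, the listed vascular and stromal transcripts were higher at 4 weeks than in DEX. The summed level of 5 endothelial genes was 2.82 to 7.85 in DEX, 6.53 to 61.9 in control, 24.1 to 155 at 1 week and 73.7 to 139 at 4 weeks, and 4 of the 5 (*Emcn*, *Kdr*, *Plvap* and *Pecam1*) passed the test in 4 weeks against DEX, all higher. The endothelial receptor *Kdr* rose by 3.81 ± 0.59 on the log2 scale (SE, limma adjusted p = 0.00832). Of 4 fibroblast and pericyte genes, summing to 0.561 to 7.77 in DEX and 39.0 to 58.0 at 4 weeks, the collagen gene *Col3a1* and the pericyte receptor *Pdgfrb* passed and were higher as well. *Kdr* and *Col3a1* had already passed in 1 week against DEX (limma adjusted p = 0.0191 and 0.0142), where *Tshb* and *Gata2* did not. *Kdr*, *Col3a1* and *Emcn* also passed the F test over the groups (adjusted p = 0.0263, 0.00899 and 0.0422), again unlike *Tshb* and *Gata2*. Sums of other lists differed between DEX and 4 weeks as well, although none of their genes passed in any comparison. The sum of 5 stem and folliculostellate genes was 58.2 to 66.5 in DEX and 90.3 to 124 at 4 weeks, and that of 4 myeloid genes 20.5 to 30.5 and 31.5 to 63.3. The sum of 2 erythroid genes was 0 to 1.12 in DEX and 2.59 to 31.7 at 4 weeks. The sum of 4 dissociation stress genes was 6255 to 7453 at 1 week and 6848 to 8253 at 4 weeks. Both ranges lay below every DEX pool (8795 to 11644) and every control pool (9463 to 9911). The third pool at 1 week had the highest endothelial sum of all, 155, and there *Tshb* (306) was the highest of the 9 libraries outside 4 weeks, while *Tshb* and *Gata2* (13.2) were both below every pool at 4 weeks. In 4 weeks against DEX *Tbx19* was lower (−2.53 on the log2 scale), as were *Avpr1b* (−2.70), *Neurod1* (−1.05), *Nr3c1* (−0.32) and *Crhr1* (−0.24). The corticotroph genes *Pomc* (3.42) and *Pcsk1* (0.72) were higher, and none of these passed. The part of the vascular, stromal and other listed transcripts in the result was not tested.

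**Figure D4:**
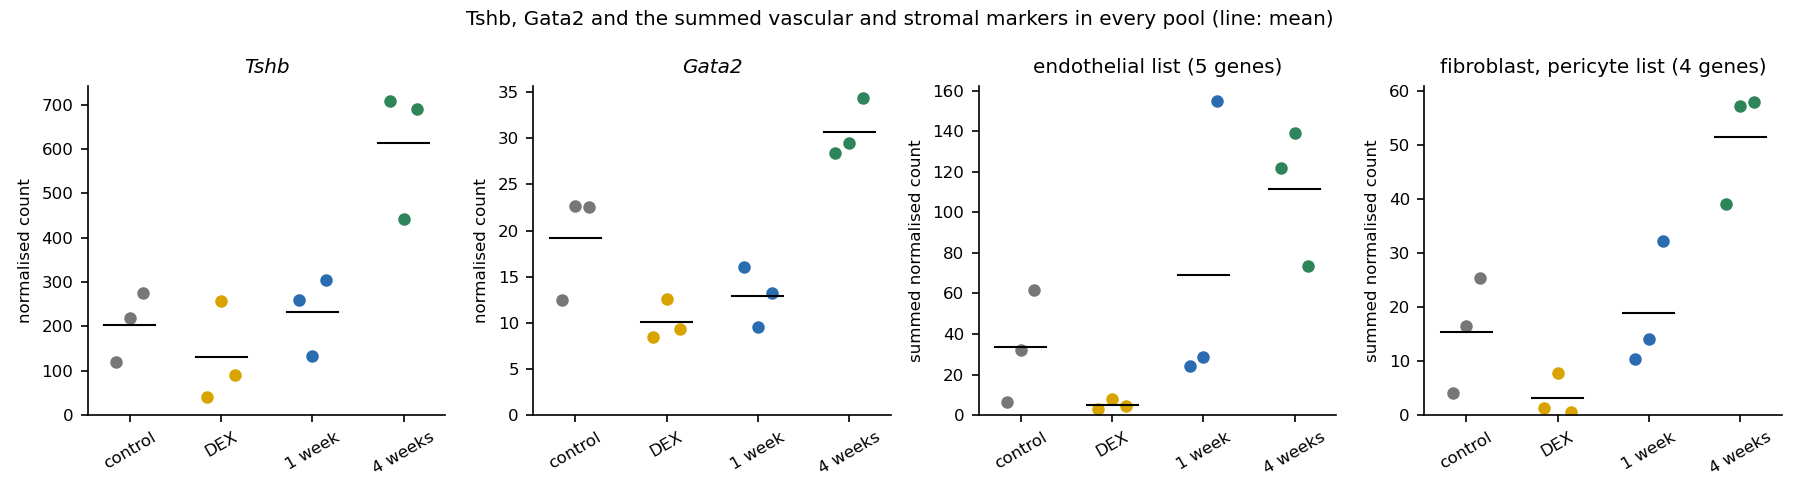
Normalised counts of *Tshb* and *Gata2* and summed normalised counts of 5 endothelial and 4 fibroblast and pericyte genes (y axes, linear from 0) in the 3 pools of each group, with the mean as a line. All 4 quantities were lowest on average in DEX, and the third 1 week pool had the highest endothelial sum (155), with *Tshb* (306) at the highest of the 9 libraries outside 4 weeks and *Gata2* at 13.2.

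*Cga* (chr4:34893779-34907370, plus strand), the alpha subunit shared by thyrotropin and the gonadotropins, stood at 2617, 3761 and 7199 in control, 909, 2090 and 3267 in DEX, 3369, 3565 and 4068 at 1 week and 4531, 5353 and 5846 at 4 weeks. Every 1 week and every 4 weeks pool was above every DEX pool, whereas the widely spread control pools overlapped with all groups. DEX lay below control by a log2 difference of −1.17 ± 0.52 (SE, limma adjusted p = 0.703), and 4 weeks above DEX by 1.5 ± 0.52 (adjusted p = 0.262). The exact permutation test over the 4 groups gave p = 0.0437, unadjusted. *Platr9*, an annotated gene overlapping *Cga* on the opposite strand, followed it at r = 0.999 over the 12 libraries with 60.2% to 64.4% of its level. Reads were counted in a strand-specific mode, but no source used here says that the library kits mark the strand, and how far reads of the 2 genes were kept apart was not tested.

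*Cga* and *Tshb* correlated over the 12 libraries at r = 0.766 (permutation p adjusted over 7 pairs = 0.0133) and rho = 0.797 (adjusted p = 0.0102). Without the 2 libraries farthest from the median of *Cga* r was 0.656, and after removal of group means it was 0.579. Without DEX pool 1 alone r was 0.556 (adjusted p = 0.192), so the relation rested on that library. In plain CPM, over all 12 libraries, r was 0.747 (permutation adjusted p = 0.0153), but rho was 0.615 and did not pass (adjusted p = 0.103). The *Tshb* to *Cga* ratio was 0.119 ± 0.0369 at 4 weeks, against 0.0473 ± 0.0100 in control, 0.0657 ± 0.0504 in DEX and 0.0631 ± 0.0224 at 1 week (SD, n = 3). The ratio did not pass over the groups (exact permutation p = 0.185, adjusted 0.231), except without the second DEX pool (adjusted p = 0.0481).

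Promoter sequences are shown for *Tshb*, which passed the test, for *Cga*, which encodes the alpha subunit of the same hormone, and for *Prl*, a known POU1F1 target. They are 250 bases before to 50 after the annotated start from RefSeq on GRCm38.p6, and 8 of the 10 members had an entry. Capitals mark the letters TATNCAT (a POU1F1 motif) or a GATA motif (AGATAA, also with T as its first letter, G as its last, or both), on either strand. The sequences below are in the direction of the gene, from chr3:102782665-102782964 (minus strand), chr4:34893529-34893828 (plus strand) and chr13:27057320-27057619 (plus strand).
Tshb: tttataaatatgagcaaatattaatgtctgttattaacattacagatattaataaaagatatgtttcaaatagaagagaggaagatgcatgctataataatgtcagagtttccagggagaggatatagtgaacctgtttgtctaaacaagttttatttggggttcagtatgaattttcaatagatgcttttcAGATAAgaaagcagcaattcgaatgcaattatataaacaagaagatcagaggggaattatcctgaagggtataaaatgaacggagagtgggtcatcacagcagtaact
Cga: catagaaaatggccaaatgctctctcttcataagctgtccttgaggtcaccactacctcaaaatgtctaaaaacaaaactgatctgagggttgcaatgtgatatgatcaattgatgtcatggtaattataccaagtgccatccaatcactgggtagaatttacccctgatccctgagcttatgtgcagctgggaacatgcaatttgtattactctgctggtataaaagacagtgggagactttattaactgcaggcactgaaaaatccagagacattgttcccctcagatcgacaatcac
Prl: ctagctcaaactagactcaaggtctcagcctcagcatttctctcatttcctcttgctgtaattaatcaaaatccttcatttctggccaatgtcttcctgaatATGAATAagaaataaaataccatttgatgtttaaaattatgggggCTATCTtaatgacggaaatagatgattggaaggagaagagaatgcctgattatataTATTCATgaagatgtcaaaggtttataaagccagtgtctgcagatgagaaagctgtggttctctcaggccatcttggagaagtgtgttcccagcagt
The *Tshb* promoter held 1 GATA match, AGATAA, from 58 to 53 bases before the start, and no POU1F1 match. That of *Prl* held 2 POU1F1 matches and 1 GATA match, none overlapping, and that of *Cga* held neither. Of 32851 promoters of this length, 8.84% held the POU1F1 letters and 29.8% a GATA match. A match describes letters and not a bound site.

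Of the 3 thyrotroph genes beside the members, none passed in any comparison. The thyrotropin-releasing hormone receptor *Trhr* had means of 1.55 in DEX and 5.81 at 4 weeks (1.74 ± 0.56 on the log2 scale, SE, limma adjusted p = 0.208). The most abundant, the thyroid hormone receptor *Thrb*, had a mean of 66.8, and *Dio2*, which activates thyroid hormone, one of 7.06. Their log2 differences between 4 weeks and DEX were 0.45 and 0.97.

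*Fshb* (chr2:107056140-107059656, minus strand), the beta subunit of follicle-stimulating hormone, stood at 511, 570.1 and 489 in control, 316, 421 and 697 in DEX, 423, 561 and 341 at 1 week and 585, 900.4 and 688 at 4 weeks. The pools at 4 weeks lay above control and 1 week but overlapped with DEX. The log2 difference of 4 weeks was 0.45 ± 0.32 from control and 0.66 ± 0.32 from DEX (SE, limma adjusted p = 0.874 and 0.528). *Gnrhr* (chr5:86180754-86197901, minus strand), the receptor for gonadotropin-releasing hormone, was the member that varied least between groups. It stood at 58.3, 61.8 and 61.9 in control, 43.6, 72.9 and 80.4 in DEX, 47.9, 48.8 and 80.0 at 1 week and 60.1, 67.4 and 57.7 at 4 weeks. Its groups all overlapped, and the exact permutation p was 0.944, unadjusted.

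*Lhb* (chr7:45420820-45421897, plus strand), the beta subunit of luteinising hormone, had 6 reads in all 12 libraries, no more than 2 in any and none in 7. A count of 3 reads per library was taken as the limit that a count of 0 allows, so no fold, ratio or correlation is given for it. In the same libraries *Fshb* had from 3068 to 8226 reads and *Gnrhr* from 383 to 892. *Lhb* overlaps the housekeeping gene *Ruvbl2* on the opposite strand, which stood at 37.1 to 187. What the low count of *Lhb* reflects was not tested.

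Of 8 gonadotroph genes beside the members, none passed in any comparison. The secreted protein gene *Spp1* (mean 72.3) and the inhibin subunit *Inha* (mean 18.8) were the most abundant, with log2 differences of 0.52 and −0.50 between 4 weeks and DEX. *Nr5a1*, the gonadotroph lineage factor SF1, had group means from 14.3 (1 week) to 21.3 (4 weeks). *Inhbb*, an activin subunit, had means of 5.95 in DEX and 15.4 at 4 weeks (1.37 ± 0.34, SE, limma adjusted p = 0.0749). The 7 factors shared by several pituitary lineages did not pass either.

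Seen by comparison, DEX against control held 3 members above and 6 below control, with a median log2 difference of −0.21 over 9 members and −0.02 over all genes. None of the 10 passed in limma, where 30 of 24736 genes did (0.121%, with 0.109% higher and 0.0121% lower), and 2 of the members, *Cga* and *Gata2*, had an unadjusted p under 0.05, beside 1682 of the 24736 genes. No member had its 3 DEX pools all on one side of its 3 control pools, beside 6.61% of all genes with the DEX pools all higher and 6.23% all lower. The edgeR and DESeq2 tests on recovered reads called no member either.

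At 1 week against control 5 members lay above and 4 below, with a median of 0.11, and none passed, as no gene did (0.0%). Their unadjusted p was never under 0.05, whereas 938 genes had one. No member was without overlap, beside 3.47% of all genes higher and 2.61% lower. edgeR's quasi-likelihood test called 2 genes and DESeq2 8, none of them a member. Against DEX the median was 0.45, and none of the members passed where 107 genes did (0.433%), 26 higher (0.105%) and 81 lower (0.327%), or 25 and 242 in plain CPM. *Tshb* alone had an unadjusted p under 0.05, beside 2665 of the 24736 genes, and *Cga* alone had no overlap, beside 6.97% of all genes with every 1 week pool above every DEX pool and 6.87% below.

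At 4 weeks against control no member and no other gene passed in limma (0.0%), although 3 members (*Tshb*, *Ghrhr* and *Gata2*) had an unadjusted p under 0.05. In 5 members (*Prl*, *Tshb*, *Fshb*, *Ghrhr* and *Gata2*) every pool at 4 weeks was above every control pool, beside 6.77% of all genes (6.42% were all below). Against DEX the same held for 6 (*Gh*, *Prl*, *Tshb*, *Cga*, *Ghrhr* and *Gata2*), beside 9.8% of all genes (9.67% were all below). Of all genes 1570 had an unadjusted p under 0.05 against control, where the quasi-likelihood test called 0 and DESeq2 60, none of them a member. Both comparisons use the same 4 weeks pools. In plain CPM, where the median of all genes was −0.13 in 4 weeks against control, 8 of the 9 members were above 0 and 9 above that median. Over the 4 groups together none of the 10 passed the F test, where 78 genes did (0.315%), and 2 members (*Tshb* and *Gata2*) and 2277 genes had an unadjusted p under 0.05.

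**Figure D5:**
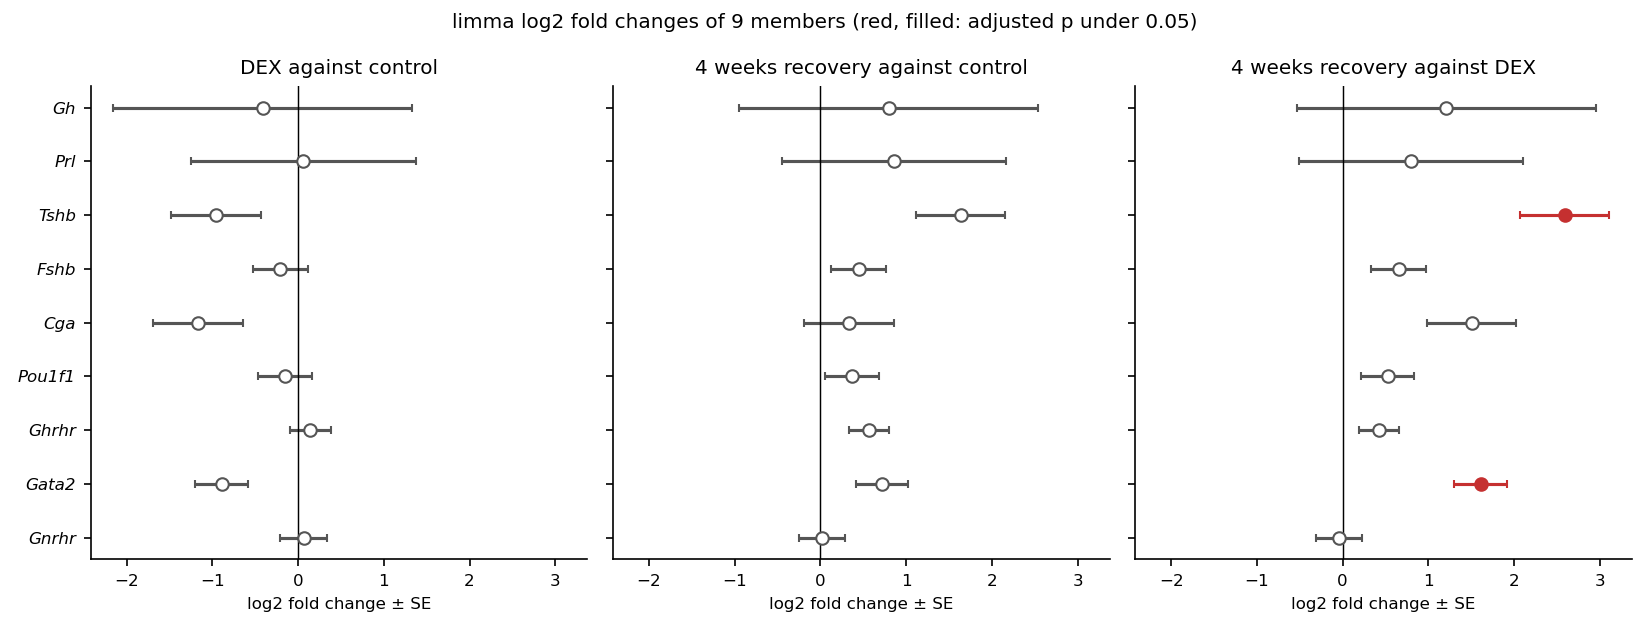
Log2 fold change (x axis) with its limma SE as a bar for 9 members (y axis; *Lhb* is left out) in DEX against control, 4 weeks against control and 4 weeks against DEX; filled red points have an adjusted p under 0.05. *Tshb* (2.59) and *Gata2* (1.61) are the filled points, both in 4 weeks against DEX, and the bars of *Gh* (1.74) and *Prl* (1.31) are the widest.

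The genes whose pattern over the 12 libraries was most like that of a member were sought among 9548 genes with a mean of at least 10. For *Gh* these were *Smim22* (r = 0.956), *Slc25a1* (0.952) and *Tcn2* (0.944), and for *Prl* *Cldn6* (0.922), *Fez1* (0.911) and *Krt7* (0.907). For *Cga*, after *Platr9*, they were *Plaat3* (0.912) and *D730003I15Rik* (0.902). For *Tshb* they were *Jam3* (0.917), *Itih5* (0.915) and *Dtx4* (0.896), and for *Gata2* they were *Itih5* (0.881), *Kazn* (0.878) and *Tshb* itself (0.873). *Gata2* was in turn the gene at rank 7 for *Tshb*. These are descriptions over libraries that share groups and scaling.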

How the data were processed

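RNA of eGFP-positive cells was sequenced in 12 libraries, 3 pools in each of 4 groups taken from the sample labels. The authors trimmed reads with Trim Galore 0.6.5, aligned them to GRCm38 (Ensembl release 98) with STAR 2.7.1a, counted pairs of mapping quality above 20 on genes with featureCounts 2.0.0 in reverse-stranded mode, and scaled them with edgeR. Libraries were made with the SMART-V4 and Nextera XT kits from RNA below the detection limit. The deposited values are a normalised signal, CPM of the TMM-scaled library size, and not the plain CPM that the design had taken them for, so the same limma test was kept. Each value divided by that of 1 read gave whole reads for 100% of 271881 values above 0, within 1e-06. The edgeR quasi-likelihood test on these reads called 165 genes over the 4 groups and 214 in 4 weeks against DEX, in place of 78 and 216.

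The members, the gene lists, the tests and the alternatives were chosen with earlier results of these data known. The main fit was limma 3.58.1 (R 4.3.3; lmFit, eBayes with trend) on log2(value + 0.1). It held the 24736 genes with 3 or more libraries above 0.1, all 12 libraries and no covariate. P-values were adjusted by Benjamini-Hochberg over all genes tested, and an adjusted p under 0.05 was called; fold changes on this scale understate those of low genes. All 10 members passed the filter, *Lhb* on single reads. Ratios and single members were compared by exact permutation tests over 369600 assignments, and correlations over the 12 libraries by permutation. Named genes were the members, *Pomc*, every listed lineage gene past the threshold and the 2 most abundant of each lineage. The 3 genes most like each of 5 members were named too (not for *Lhb*, which had too few reads). *Tbx19*, the other corticotroph genes beside *Pomc*, *Pax7*, *Pcsk2*, *Ghsr*, *Drd2* and *Gal* were named after their values were seen. So were *Trhr*, *Dio2*, *Nr5a1*, *Inhbb*, *Ruvbl2*, *Gm49631* and the vascular and stromal genes. Scripts were tested on simulated data. edgeR 4.0.16 and DESeq2 1.42.0 were run as alternatives on the recovered reads, with other pseudocounts, filters and scalings, array weights, a replicate block, only the 2 groups compared and each library left out. Libraries of 1 group differed by a chi-square of at least 15.9 per gene, so none was a copy. Whether pools came from separate cages is known only from the study's methods. Coordinates and overlaps are from GENCODE M21 on GRCm38.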

Additional observations from a re-analysis of the deposited data

Results flagged for a closer look

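The effects at the end of DEX and after 4 weeks of recovery, each against control, differed for 2 members in limma. Control cancels in this difference, so it is the comparison of 4 weeks with DEX given above and no further evidence, and both calls were lost in 5 of 12 fits with 1 library left out. For *Tshb* the log2 difference was −0.96 in DEX and 1.64 at 4 weeks, and these differed by 2.59 (adjusted p = 0.0290), with 3 of 3 pools at 4 weeks above all DEX pools. For *Gata2* the differences were −0.89 and 0.72, and these differed by 1.61 (adjusted p = 0.0254), again with no overlap. Between 4 weeks and 1 week of recovery, a comparison added after the data were seen, no member differed (limma adjusted p of 0.592 for *Gata2* and 0.770 for *Tshb*). Groups of 3 pools are too small for a test of single outlying libraries.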

How the results depend on the processing

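The 2 calls in 4 weeks against DEX became 0 in plain CPM, with only the 2 groups compared and with moderation without a trend (an alternative chosen after seeing the data; adjusted p = 0.102 for *Tshb* and 0.0713 for *Gata2*), 1 (*Gata2*) in edgeR's quasi-likelihood test, and 4 with array weights (*Cga*, *Fshb*, *Gata2*, *Tshb*) and in edgeR's likelihood ratio test (*Cga*, *Gata2*, *Gh*, *Tshb*). They ranged from 0 to 2 with each library left out. The F test called 2 members (*Gata2*, *Tshb*) with array weights, in the likelihood ratio test and in DESeq2, and 0 to 1 with each library left out. In 4 weeks against control the likelihood ratio test called 1 (*Tshb*). The adjusted p of the *Gh* to *Pomc* ratio ranged from 0.0036 to 0.0640 with libraries left out, that of *Tshb* to *Cga* from 0.0481 to 0.442, and r of *Cga* and *Tshb* from 0.556 to 0.818. Fits with a library left out also hold fewer samples, and the cause of these changes was not tested in any setting.

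With the replicate number as a block *Tshb* and *Gata2* still passed in 4 weeks against DEX (adjusted p = 0.0389 and 0.0317), the adjusted p of the *Gh* to *Pomc* ratio was 0.0434, and no call changed. No source used here gives the numbers as a pairing. The 18 same-numbered pairs correlated at −0.294 to 0.397 and the 36 others at −0.273 to 0.382. Such overlapping ranges cannot show whether same-numbered pools were handled together. Genes called over the groups went from 78 to 85, and in 4 weeks against DEX from 216 to 241. Counts over all genes moved by more than 1.5 times from those 2 with array weights (1069 and 1300), in the likelihood ratio test (1047 and 672), in DESeq2 (734 and 655) and with moderation without a trend (32 and 88), in the F test alone in the quasi-likelihood test (165) and plain CPM (126), and in 4 weeks against DEX with only 2 groups (21). With libraries left out the F test called 7 (without DEX pool 3) to 185 genes (without 1 week pool 3), and 13 without DEX pool 1. In 4 weeks against DEX it was 20 and 32 without DEX pools 1 and 3, 50, 18 and 40 without pools 1, 2 and 3 at 4 weeks, and 393 without 1 week pool 3. DEX against control gave 2 (without DEX pool 3 or control pool 2) to 73 genes (without 1 week pool 3), and 1 week against DEX 16 (without DEX pool 3) to 200 (without 1 week pool 1). In DEX against control the 30 genes became 49 in plain CPM, 49 and 54 with pseudocounts of 0.5 and 1, 166 with array weights, 270 and 190 in the likelihood ratio test and DESeq2, 16 without a trend and 1 with only 2 groups. At 1 week against DEX the 107 became 267, 566, 712, 573 and 0 in plain CPM, array weights, likelihood ratio test, DESeq2 and only 2 groups. At 1 and 4 weeks against control the 0 became 4 and 186 with array weights, 50 and 94 in the likelihood ratio test and 8 and 60 in DESeq2, and at 1 week 2 in the quasi-likelihood test and 2 and 3 with the pseudocounts.

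Plain CPM moved the median log2 difference of all genes to 0.10 in DEX, −0.19 at 1 week and −0.13 at 4 weeks against control, and to −0.29 and −0.24 at 1 and 4 weeks against DEX. Small member differences, none past the threshold, changed sign. In DEX against control *Prl* was −0.011 in both edgeR tests and −0.036 in DESeq2, and with libraries left out *Gh* ran from −0.70 to 0.040, *Prl* from −0.32 to 0.34, *Fshb* from −0.52 to 0.052, *Pou1f1* from −0.35 to 0.16, *Ghrhr* from −0.022 to 0.31 and *Gnrhr* from −0.10 to 0.34. At 1 week against control *Tshb* was −0.044 and *Ghrhr* −0.12 in plain CPM and *Pou1f1* −0.055 with array weights, and left-out libraries gave −0.16 to 0.54 for *Tshb*, −0.51 to 0.22 for *Cga*, −0.055 to 0.22 for *Ghrhr* and −0.33 to 0.044 for *Gnrhr*. At 4 weeks against control *Gnrhr* was −0.12 in plain CPM and −0.043 to 0.069 with libraries left out. At 1 week against DEX *Gata2* was −0.026 in plain CPM, *Prl* −0.16 and *Fshb* 0.074 with array weights, and left-out libraries gave −0.32 to 0.25 for *Fshb*, −0.20 to 0.11 for *Ghrhr* and −0.42 to 0.020 for *Gnrhr*. At 4 weeks against DEX *Gnrhr* was 0.0063 when scaled to the reads outside the members and *Pomc*, 0.045 with array weights and −0.31 to 0.13 with libraries left out. *Gh* and *Prl* have many reads, and their error is that between pools, while *Gata2* rests on 75 to 381 reads per library. Amplification from trace RNA adds noise that counting intervals do not cover.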
